A study of Mus musculus with 8 samples.

Results

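The genes described here encode 10 enzymes that modify or trim transfer RNA (tRNA): Mettl1, Wdr4, Nsun2, Trmt6, Trmt61a, Trmt1, Pus1, Pus7, Dus1l and Elac2. They were picked by function around Mettl1, which earlier results of the same data had shown to be among the clearest falls, and all 10 were found among the 54838 genes of the count table. The cells were mouse acute myeloid leukaemia (AML) cells carrying the fusion RUNX1-RUNX1T1, also called AML1-ETO, on a C57BL/6 background, and both groups share this fusion. Cryopreserved leukaemic cells were transplanted into Ptprca mice, which the labels describe as sublethally irradiated, and the recipients then received vehicle (4 samples) or AG636 (4 samples), the latter by gavage in 2 doses a day of 100 mg/kg for 1 day. The leukaemia was grown from cells of a moribund mouse, and the study's methods name irradiation for its other models only. AG636 inhibits DHODH, an enzyme of pyrimidine synthesis. Cells were sorted by fluorescence from bone marrow and spleen. The study's methods give the gate as high for cKit and low for CD11b, whereas its other passages on this model name high cKit alone or cKit-positive, CD11b-negative cells. The labels do not say which organ a sample came from or whether each sample is a separate mouse, and the study's legend gives fewer mice per group than there are samples here. The p-values below therefore measure the spread between samples, which could be smaller than that between mice. Neither the age of the mice nor the composition of the vehicle is given in the sources used here.

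A tRNA is made as a longer precursor and acquires its mature form in steps. Its trailer is cut off by the nuclease Elac2, its leader by RNase P, and enzymes then methylate, isomerise or reduce selected bases. The Mettl1 and Wdr4 proteins form the complex that writes 7-methylguanosine in the variable loop, and Trmt6 and Trmt61a form the complex that writes 1-methyladenosine in the T loop. Nsun2 makes 5-methylcytosine, Trmt1 makes dimethylguanosine between the D arm and the anticodon arm, Pus1 and Pus7 turn uridine into pseudouridine, and Dus1l reduces uridine to dihydrouridine. Such marks hold the tRNA in shape and protect it from decay, and growing cells need large amounts of tRNA.

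The libraries held between 6120030 and 7162036 counts, and a count of 3, the smallest amount treated as measurable, corresponded to 0.434 to 0.479 CPM. CPM are read counts scaled to a common library size, here with TMM factors, and all levels below are on this scale. The kit reads the 3′ end of poly-A RNA and gives roughly 1 read per transcript whatever its length, so CPM was not divided by length. The cells carried the progenitor transcripts Kit (155 to 177 CPM in Vehicle, 153 to 252 CPM in AG636) and Myb (388 to 503 and 453 to 717 CPM). Cd34 was low, at 2.43 to 12.6 CPM in Vehicle and 4.05 to 5.11 CPM in 3 AG636 samples, and stood apart at 35.6 CPM in AG636 sample 3. Mpo, a granule enzyme of myeloid progenitors, reached only 4.77 CPM and Itgam, which encodes CD11b, at most 4 counts. These 4 progenitor markers, Itgam not included, summed to 559 to 696 CPM in Vehicle and 626 to 940 CPM in AG636, none was called, and their part in the results was not tested. Transcripts of red cell precursors were abundant, and 5 erythroid markers summed to 4370 to 8215 CPM in Vehicle and 7256 to 8382 CPM in AG636, with none called between the groups. The summed markers of B cells (2.46 to 13.2 CPM), T and NK cells (1.06 to 18.5 CPM), mature myeloid cells (3.11 to 27.9 CPM) and macrophages and dendritic cells (0.461 to 2.89 CPM) were low, and 5 of these 17 genes were high enough to test. Cd79a of B cells was called higher in AG636 (limma adjusted p = 0.0266) at no more than 22 counts a sample, and the part of such cells in the results was not tested. In sorted bulk RNA, fewer cells of a type and less RNA per cell cannot be told apart.

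Several of these genes share a motif near their start. RefSeq gave windows from 250 bases before to 50 bases after the start site for 8 members (10 windows, GRCm38.p6), and for Trmt6 and Trmt1 no window was in the table. The E-box CACGTG, which reads the same on both strands and is bound by dimers of Myc and Max, was found for 4 of the 8 members: Mettl1, Trmt61a, Pus1 and Pus7. By comparison, 12.1% of the 8154 tested genes with a window held an E-box, and 7.15% of all 32851 windows did. All 8 members with a window were called lower in AG636, and among all 735 genes so called with a window the share was 18.8%. With only 8 members, no test was made of the difference. The YY1 core AAGATGG, searched on both strands, was found in none of the members' windows, in 6.34% of all windows and for 9.19% of tested genes with a window. At such shares, none among 8 members carries little weight. Each of the 4 E-boxes lay just inside the transcript that begins at the RefSeq start, in an exon that GENCODE M21 annotates as untranslated. The counted gene begins further upstream for Mettl1, at 127041414 against a RefSeq start of 127041932, and for Pus1, at 110780659 against 110780615. The sites are shown because they lie at nearly the same distance from the RefSeq start in these 4 genes. They are written 5′ to 3′ on the strand of the gene with the E-box in capitals.
Mettl1, chr10:127041950-127041979, + strand: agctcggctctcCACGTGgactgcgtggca
Trmt61a, chr12:111678118-111678147, + strand: ccgccgtggagcCACGTGtggagccgggag
Pus1, chr5:110780576-110780605, − strand: tccgccttcgtgCACGTGgtcagcttcggg
Pus7, chr5:23783666-23783695, − strand: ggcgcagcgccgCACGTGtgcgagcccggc
Counting the RefSeq start site as +1, the first base of the E-box stood at +31 in Mettl1, +26 in Trmt61a, +23 in Pus1 and +29 in Pus7. For Pus1, whose pair of windows overlap, the position is given from the upstream start, and from the other it was +4. The second window of Pus7, at a start further downstream, held no E-box. The windows of Wdr4, Nsun2, Dus1l and Elac2 held no E-box. For Wdr4 the RefSeq start (31512487) lay inside the counted gene, which begins at 31519974 on the − strand. For Nsun2 the RefSeq start was 69612016, against 69533746 for the counted gene. In both, and in Mettl1 as well, the region where the counted gene begins was not searched. An E-box in a window is a run of letters and not evidence that a factor was bound there.

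**Figure D1:**
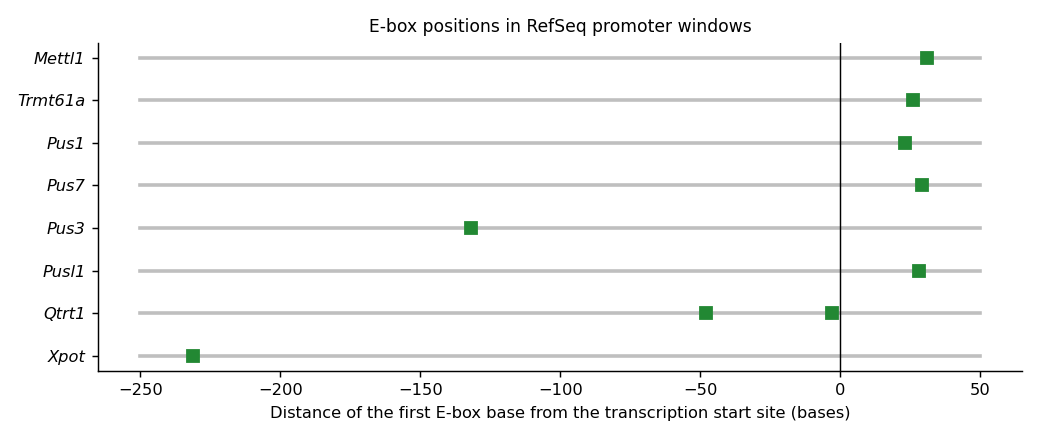
Position of the first E-box base (green squares) relative to the RefSeq transcription start site, in bases, within the 250 bases before and 50 bases after it (grey lines), for the 4 members and 4 other tRNA enzymes called lower in AG636 that hold the motif. The 7 other enzymes that hold it and were not called are not drawn. In Mettl1, Trmt61a, Pus1, Pus7 and Pusl1 the square lies between +23 and +31, whereas in Pus3, Qtrt1 and Xpot it lies upstream. Pus1 is drawn from its upstream start, and from the other start its site is at +4.

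In Vehicle cells the most abundant of these transcripts was Nsun2, at 192 ± 5.88 CPM (SD, n = 4), a level above that of 91.7% of the 10911 genes tested. Trmt6 followed at 178 ± 6.33 CPM and Pus7 at 78.5 ± 3.49 CPM, and the ranges of these 3 genes did not overlap. Trmt1 stood at 46.8 ± 6.15 CPM, above Mettl1 at 36.2 ± 2.64 CPM. Mettl1 and Pus1 (34.2 ± 1.36 CPM) overlapped in range. So did each neighbouring pair among Trmt61a (28.2 ± 3.23 CPM), Elac2 (28.0 ± 2.44 CPM), Dus1l (26.3 ± 4.12 CPM) and Wdr4 (20.7 ± 3.38 CPM). In AG636 cells Trmt6 (128 ± 26.8 CPM) and Nsun2 (111 ± 11.8 CPM) exchanged places with overlapping ranges, and Mettl1 went from the 5th place to the 8th, at 15.7 ± 1.04 CPM.

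The effect of AG636 on these genes was then described. All 10 had lower mean levels in AG636, by 15.8% of the Vehicle mean for Trmt1 up to 56.5% for Mettl1, and their summed level was 669 ± 15.6 CPM in Vehicle and 437 ± 36.5 CPM in AG636 (SD, n = 4). Nsun2 and Trmt6 together made up 56.4% of that difference of 232 CPM. The median log2 fold change of the 10 was −0.61, beside −0.01 over all tested genes. In 1 limma-voom fit of all genes, 9 of the 10 were called lower (adjusted p under 0.05), where 8.49% of tested genes were called lower and 14.0% in either direction, 4 of the 10 at an adjusted p under 0.01, where 2.70% of tested genes were lower, and in 8 of the 10 every AG636 sample lay below every Vehicle sample, where 12.9% of tested genes did and 9.35% did the reverse. A value under 0 was found in all 10 and in 50.6% of tested genes. Since Mettl1 was chosen for its fall in this same contrast and the others with its results known, these counts and the changes below are a description, and no test is drawn from them. Leaving out Vehicle sample 1 or 4 gave 4 called members, leaving out Vehicle sample 2 or 3 gave 5, and library size alone in place of TMM factors gave 5. Mettl1, Nsun2, Trmt61a and Pus7 were called in each of the 19 other fits.

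**Figure D2:**
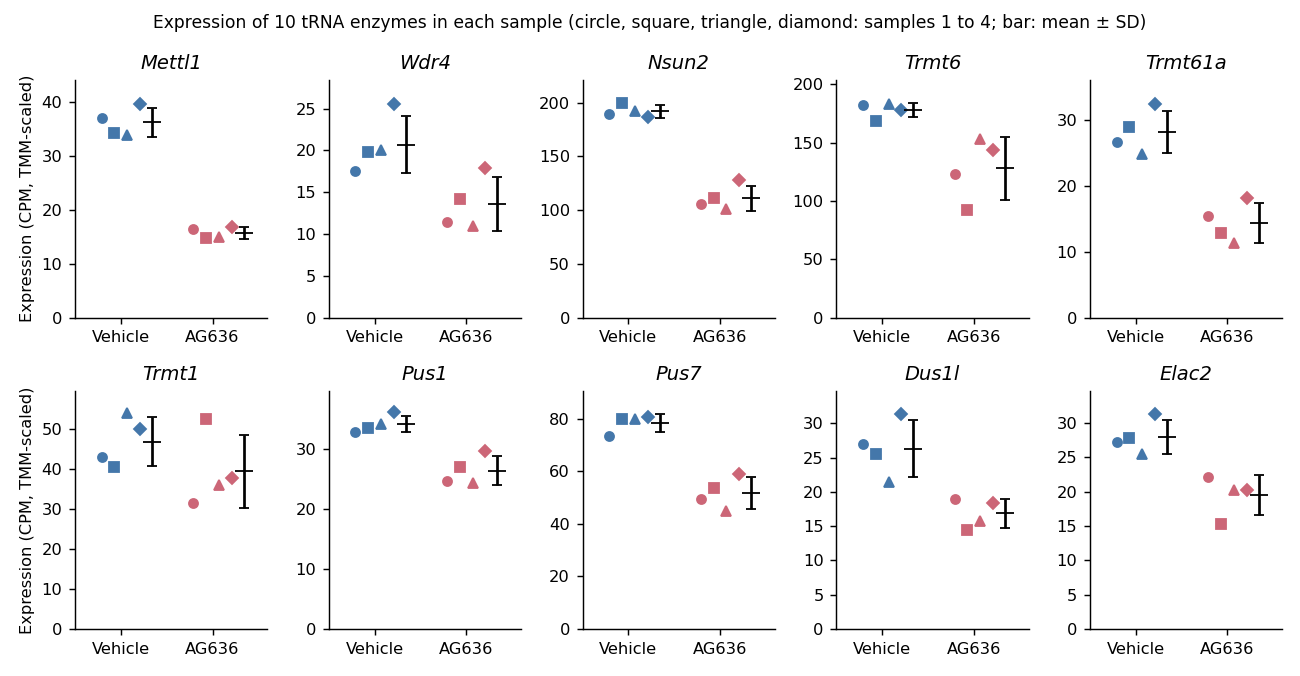
Expression of each member in CPM (vertical axes from 0, separate for each gene) in the Vehicle (blue) and AG636 (red) samples, with the mean ± SD of 4 samples in black. The groups are apart in 8 genes, and overlap in Wdr4 and in Trmt1, where AG636 sample 2 lies at 52.5 CPM.

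The transcript of Mettl1, the catalytic subunit of the 7-methylguanosine complex (ENSMUSG00000006732, chromosome 10, 127041414 to 127046365, + strand), was measured at 37.0, 34.3, 33.9 and 39.6 CPM in Vehicle samples 1 to 4. In AG636 samples 1 to 4 it was at 16.5, 14.7, 15.0 and 16.8 CPM, from 106, 92, 94 and 116 counts. The 2 groups were separated by 17.1 CPM, far more than the spread within either. The fitted log2 fold change was −1.20 (SE 0.11), and only 0.522% of tested genes had a lower value. The spread among AG636 samples (6.64% of the mean) did not exceed the 9.90% that counting error alone gives at this depth. Among Vehicle samples the spread was 7.31%, above a counting error of 6.47%. A neighbour on the other strand, Eef1akmt3, shares 100 exonic bases with Mettl1 and had 12 counts over all samples against 1364.

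Its partner Wdr4, the WD-repeat subunit (ENSMUSG00000024037, chromosome 17, 31494323 to 31519974, − strand), was measured at 17.6, 19.8, 20.0 and 25.6 CPM in Vehicle and at 11.4, 14.2, 11.0 and 17.9 CPM in AG636. The highest AG636 sample, sample 4, lay just above the lowest Vehicle sample, sample 1. The log2 fold change was −0.61 (SE 0.18). Wdr4 lay at the edge of the call, which it lost in 14 of the 19 other fits, including every fit that left out 1 sample except that without AG636 sample 4. The ratio of Mettl1 to Wdr4 within a sample was 2.10, 1.73, 1.70 and 1.55 in Vehicle and 1.45, 1.03, 1.36 and 0.935 in AG636, with no overlap. Since Mettl1 was chosen for its fall in this contrast, its lower ratio to a gene that fell less is a description only.

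In the other paired methyltransferase the catalytic subunit had the lower log2 fold change of the pair, with ratios that overlapped between groups. The transcript of its catalytic subunit Trmt61a (ENSMUSG00000060950, chromosome 12, 111678105 to 111683902, + strand) was measured at 26.7, 28.9, 24.9 and 32.4 CPM in Vehicle and at 15.4, 12.8, 11.3 and 18.2 CPM in AG636, with no overlap and a log2 fold change of −0.97 (SE 0.16). Trmt6, the partner that helps to bind tRNA (ENSMUSG00000037376, chromosome 2, 132804207 to 132816055, − strand), was measured at 182, 169, 183 and 178 CPM in Vehicle and at 123, 92.3, 153 and 144 CPM in AG636. The Vehicle samples lay close together and the AG636 samples were spread widely, with sample 2 lowest. The log2 fold change of Trmt6 was −0.50 (SE 0.14), and its call was lost without any 1 of the Vehicle samples or AG636 sample 1. Trmt61a transcripts stood at 0.159 ± 0.0213 of those of Trmt6 in Vehicle and at 0.116 ± 0.0286 in AG636 (SD, n = 4), and the 2 groups overlapped.

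**Figure D3:**
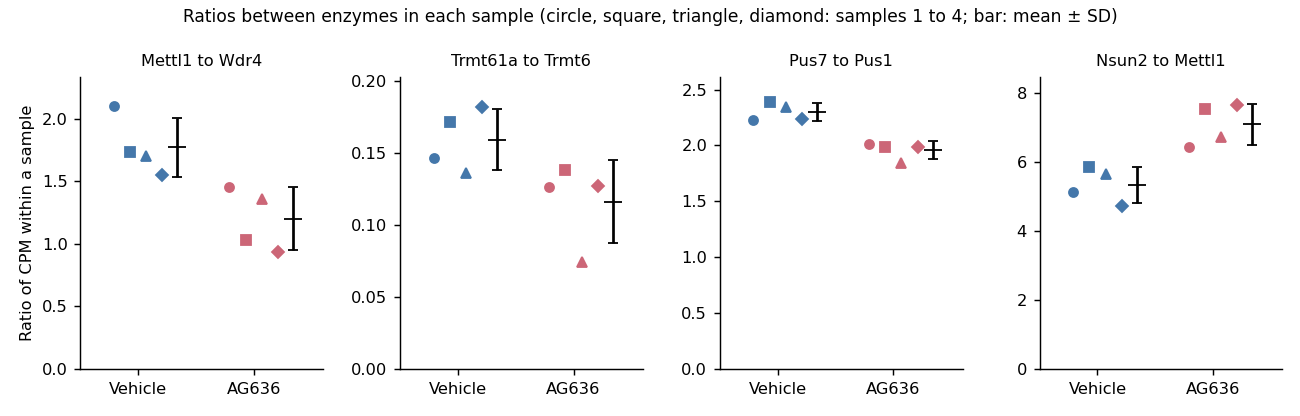
Ratio of the CPM of 2 members within each sample (vertical axes from 0), in Vehicle (blue) and AG636 (red), with the mean ± SD of 4 samples in black. Mettl1 to Wdr4 and Pus7 to Pus1 were lower in all AG636 samples, Nsun2 to Mettl1 was higher in all of them, and Trmt61a to Trmt6 overlapped between groups. Mettl1 was chosen for its fall and the other members with earlier results known, so all these ratios are a description only.

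Nsun2, which makes 5-methylcytosine in tRNA (ENSMUSG00000021595, chromosome 13, 69533746 to 69635780, + strand), was measured at 190, 200, 192 and 187 CPM in Vehicle and at 106, 111, 101 and 128 CPM in AG636. The groups stood 58.5 CPM apart, and the log2 fold change was −0.79 (SE 0.09). The change was smaller than that of Mettl1, and the Nsun2 to Mettl1 ratio, at 5.33 ± 0.512 in Vehicle (SD, n = 4), was 7.08 ± 0.597 in AG636, all of whose samples were higher. The choice of Mettl1 for its fall favours such a difference. Tent4a on the other strand shares 165 exonic bases with Nsun2 and had 884 counts over all samples against 7963. Trmt1, the dimethylguanosine enzyme (ENSMUSG00000001909, chromosome 8, 84686307 to 84699808, + strand), was the exception. It was measured at 43.1, 40.4, 53.9 and 49.9 CPM in Vehicle and at 31.4, 52.5, 36.1 and 37.7 CPM in AG636, and the groups overlapped because of AG636 sample 2. Its log2 fold change of −0.27 (SE 0.16) did not pass the threshold, and 21.1% of tested genes had a lower value. Without AG636 sample 2 it was −0.41 and without AG636 sample 1 it was −0.17, and the call was absent in each of the 19 other fits.

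Among the pseudouridine synthases, Pus7, which needs no guide RNA (ENSMUSG00000057541, chromosome 5, 23740648 to 23783711, − strand), was measured at 73.3, 80.1, 80.0 and 80.6 CPM in Vehicle and at 49.3, 53.8, 44.8 and 59.0 CPM in AG636, a log2 fold change of −0.60 (SE 0.10). Pus1, which also acts in mitochondria (ENSMUSG00000029507, chromosome 5, 110773667 to 110780659, − strand), was measured at 32.9, 33.5, 34.2 and 36.1 CPM in Vehicle and at 24.6, 27.0, 24.4 and 29.6 CPM in AG636, a smaller log2 fold change of −0.37 (SE 0.10). Neither gene overlapped between groups. The Pus7 to Pus1 ratio was 2.30 ± 0.0800 in Vehicle and 1.96 ± 0.0804 in AG636 (SD, n = 4), and the groups did not overlap. Both genes were chosen with earlier results of these data known. No share was computed for ratios of other gene pairs, so this too is a description only. The call of Pus1 was lost without any 1 of the Vehicle samples or of AG636 samples 1 to 3, whereas that of Pus7 was kept.

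Dus1l, the dihydrouridine synthase of the D loop (ENSMUSG00000025155, chromosome 11, 120789201 to 120796403, − strand), was measured at 27.0, 25.5, 21.4 and 31.3 CPM in Vehicle and at 19.0, 14.5, 15.8 and 18.4 CPM in AG636, a log2 fold change of −0.63 (SE 0.15). The gap between the groups was 2.38 CPM, less than the SD among Vehicle samples, and the call was lost without Vehicle sample 1 or 4. Elac2, the nuclease that removes the 3′ trailer in the nucleus and in mitochondria (ENSMUSG00000020549, chromosome 11, 64979038 to 65002069, + strand), was measured at 27.2, 27.8, 25.5 and 31.3 CPM in Vehicle and at 22.1, 15.3, 20.3 and 20.2 CPM in AG636. Its log2 fold change was −0.53 (SE 0.14), with AG636 sample 2 lowest and no overlap, and its call was lost without any 1 of the Vehicle samples or AG636 sample 2.

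**Figure D4:**
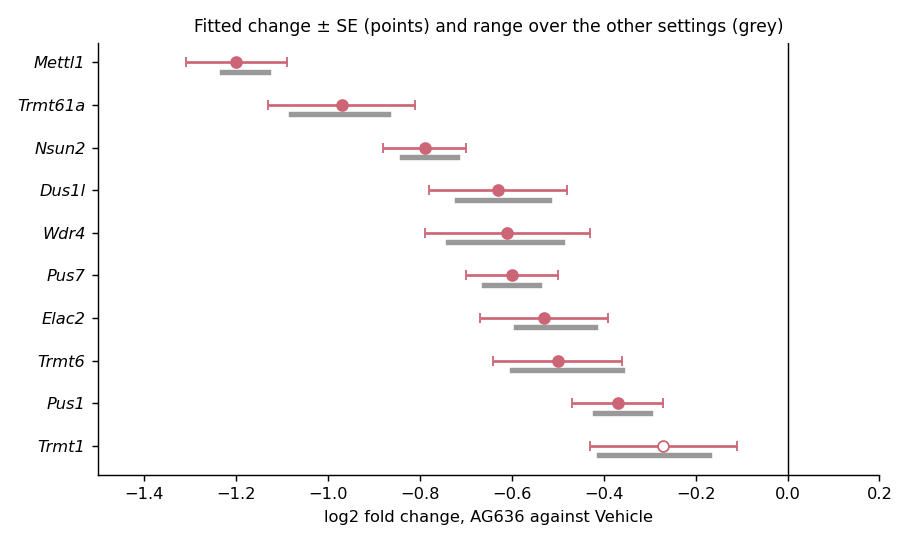
Log2 fold change of each member in AG636 against Vehicle (points, bars ± SE, filled where adjusted p was under 0.05 by limma-voom) and the range of the value over 19 other settings (grey bars below). The points run from −1.20 for Mettl1 to −0.27 for Trmt1, and the grey bars, which all lie under 0, reach from −1.23 for Mettl1 to −0.17 for Trmt1.

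The samples did not rank alike within the groups. Vehicle sample 4 was the highest Vehicle sample for 7 of the 10 genes. Among AG636 samples, sample 4 was the highest for 6 genes and sample 3 the lowest for 5, while sample 2 was the lowest for Mettl1, Trmt6, Dus1l and Elac2. The summed level of the 10 was 657, 660, 669 and 691 CPM in Vehicle samples 1 to 4 and 418, 408, 432 and 490 CPM in AG636 samples 1 to 4. The spread relative to the mean was larger in AG636 than in Vehicle for 8 of the 10 genes, Mettl1 and Dus1l being the exceptions. The highest erythroid marker sum in AG636 (8382 CPM) was in sample 2 and the lowest in Vehicle (4370 CPM) in sample 4, and the part of cell mixture in these levels was not tested. The E-box members spanned log2 fold changes from −1.20 to −0.37 and the members whose windows lacked it from −0.79 to −0.53, so the 2 sets overlapped.

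The profile of Mettl1 over the 8 samples was compared with those of 5282 well expressed genes (average log2 CPM of at least 5, members left out), as the mean absolute difference between centred log2 CPM values. Mettl1 itself, at 36.2 CPM in Vehicle and 15.7 CPM in AG636, lay below this cut-off, so genes at its own level were not searched. The closest was Tsr1, an assembly factor of the small ribosomal subunit, at a difference of 0.0871 log2 units, which went from 96.9 ± 4.38 to 44.6 ± 4.32 CPM (SD, n = 4). It was followed by Fam136a (0.10), Gnl3, a nucleolar GTPase also called nucleostemin (0.12), Apex1, an endonuclease of base excision repair (0.14), and Mrto4, an assembly factor of the large ribosomal subunit (0.14). Among the members, to which the cut-off was not applied, the closest to Mettl1 were Trmt61a (0.15) and Nsun2 (0.20), and the farthest was Trmt1 (0.46). The measure takes in the gap between the groups, for which Mettl1 was chosen, so genes with a fall of similar size come out close. The distances of the members followed the order of their log2 fold changes. Whether any of these genes vary together within a group was not tested.

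The rest of the pathway was then examined in a list of 102 other genes of tRNA modification, processing, splicing and export, of which 100 were matched and 96 passed the filter on low counts. Of these 96, 16 fell (16.7%, against 8.49% of all tested genes) and 1 rose (1.04%, against 5.47%) by limma-voom at an adjusted p under 0.05, and the other 79 did not pass. The median log2 fold change was −0.23, and 74 of the 96 had a value under 0. With library size alone 7 were called lower and 3 higher, a split that over all genes moved from 60.8% lower to 38.3% lower. Leaving out Vehicle sample 1, 2, 3 or 4 left 9, 10, 5 and 7 calls, and leaving out AG636 sample 2 left 11.

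**Figure D5:**
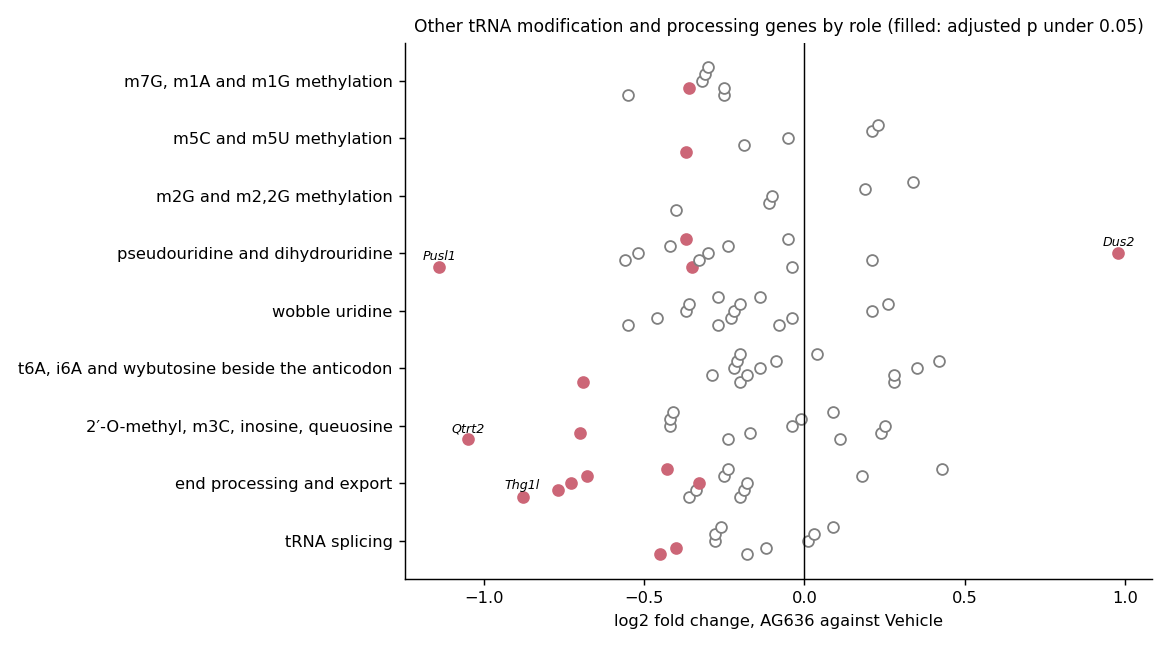
Log2 fold change in AG636 against Vehicle of 96 other tRNA modification and processing genes, 1 circle a gene, grouped by role and filled where limma-voom adjusted p was under 0.05; vertical offsets within a group only separate the circles. Filled circles lie left of 0 except Dus2 at 0.98, and the wobble uridine and m2G groups hold none.

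The role with the most calls was end processing and export, with 6 of 15 genes lower and none higher. Xpot, which carries mature tRNA out of the nucleus, was measured at 140, 136, 142 and 147 CPM in Vehicle and at 72.9, 89.7, 80.9 and 99.6 CPM in AG636, with a fitted log2 value of −0.73 (SE 0.10) and a limma adjusted p of 0.00238. Pop1, the largest protein of RNase P, fell from 47.1 ± 3.18 to 29.4 ± 1.86 CPM (−0.68 on the log2 scale, limma adjusted p = 0.00301, SD over 4 samples). Rpp40 (−0.77, limma adjusted p = 0.0277) and Rpp14 (−0.43, adjusted p = 0.0323), both also counted as RNase P proteins, and Thg1l, which adds a guanosine to the tRNA for histidine (−0.88, adjusted p = 0.0407), were lower as well. Ssb, the La protein that binds the end of new RNA polymerase III transcripts, was the most abundant gene of the list and went from 943 ± 51.2 to 751 ± 42.1 CPM (−0.33, limma adjusted p = 0.0214). The groups were apart in each of these 6 genes, which the call by the same contrast makes likely. Over the whole role every AG636 sample lay below every Vehicle sample in 7 of 15 genes, beside 12.9% of tested genes.

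Of 13 pseudouridine and dihydrouridine genes, 3 were called lower and 1 higher. Pusl1, a pseudouridine synthase, was measured at 15.9, 22.0, 16.9 and 17.0 CPM in Vehicle and at 7.78, 6.38, 8.62 and 9.54 CPM in AG636, and its log2 value of −1.14 (SE 0.18), with a limma adjusted p of 0.00419, was the lowest of the 96. It shares 697 exonic bases with Ints11 on the other strand, which had 2166 counts over all samples against 683 for Pusl1, so its level is uncertain where strand was not used in counting. Dus2, a relative of Dus1l that reduces uridine in the D loop, moved the other way. It was measured at 9.47, 9.84, 8.05 and 11.4 CPM in Vehicle and at 25.2, 22.5, 12.6 and 18.4 CPM in AG636, with a log2 value of 0.98 (SE 0.23) and a limma adjusted p of 0.0205, and lost the call without Vehicle sample 1, 2 or 3. Dus2 shares 150 exonic bases with Dpep2 (1300 counts) and 72 with Ddx28 (878 counts), against 765 counts of its own. Pus3 (−0.35, limma adjusted p = 0.0441) and Dus3l (−0.37, adjusted p = 0.0494) lay near the threshold, and Pus3 shares 2618 exonic bases with Hyls1, which had 98 counts against 1659.

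In the remaining roles the calls were few. Both subunits of the queuosine enzyme, which exchanges a guanine in the anticodon, fell: Qtrt2 from 13.6 ± 1.54 to 6.54 ± 1.21 CPM (SD, n = 4, log2 fold change −1.05, limma adjusted p = 0.00553) and the catalytic Qtrt1 from 23.1 ± 4.64 to 14.2 ± 2.77 CPM (−0.70, adjusted p = 0.0339). They were the only calls among 13 genes of 2′-O-methylation, m3C, inosine and queuosine, where Wdr6, the most abundant over all samples and a partner in 2′-O-methylation, had a value of −0.24 (adjusted p = 0.193). Yrdc, which makes the first intermediate of the t6A mark beside the anticodon, fell from 30.2 ± 3.94 to 18.6 ± 1.86 CPM (−0.69, limma adjusted p = 0.00966) and was the only call among 14 genes of that position. It shares 488 exonic bases with 1110065P20Rik, which had 803 counts against 1279. There Lage3, of the KEOPS complex that completes t6A, had a value of 0.28 (adjusted p = 0.0528). In tRNA splicing, Rtcb, the ligase that joins the exons, fell from 145 ± 10.3 to 110 ± 6.52 CPM (−0.40, limma adjusted p = 0.0124) and Clp1, an RNA kinase, from 29.4 ± 2.35 to 21.6 ± 3.18 CPM (−0.45, adjusted p = 0.0451), 2 calls among 10 genes.

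Of 7 m7G, m1A and m1G genes, Alkbh1, a tRNA demethylase, was called lower (−0.36, limma adjusted p = 0.0493) with overlapping groups and 122 exonic bases shared with Slirp (5766 counts against 2541), and Hsd17b10, a subunit of mitochondrial RNase P, had a value of −0.31 (adjusted p = 0.0845). Of 5 m5C and m5U genes, Trmt2a, a uridine methyltransferase, was called lower (−0.37, limma adjusted p = 0.0364), but it shares 825 exonic bases with Dgcr8 (2585 counts) and 54 with Ranbp1 (15126 counts) on the other strand, against 2196 of its own. No gene passed among 5 of m2G methylation, where Trmt112, the shared partner of several methyltransferases, was at −0.10 (adjusted p = 0.460), or among 14 of wobble uridine modification, which include the Elongator complex and Alkbh8 (0.21, adjusted p = 0.397). Of the 17 called genes, Pusl1, Yrdc, Qtrt2, Pop1 and Xpot were called in each of the 19 other fits, and each of the other 12 lost the call in at least 1 fit that left out a sample. For Rtcb this was the fit without Vehicle sample 3, for Ssb those without Vehicle sample 2, 3 or 4, and for the remaining 9 besides Dus2 it was 5 to 8 of the 8 such fits. Among genes too low to test, Trmt9b and Rpp25 had 0 counts in every sample, which allows at most the 0.434 to 0.479 CPM given above, and Trpt1 had no more than 7 counts a sample. Adat3 was also at 0, but it shares 1516 exonic bases with Gm49322 and 132 with Scamp4 on the same strand, both likewise at 0, so its count sets no upper limit.

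Of the other tRNA enzymes, 11 of 88 with a window held an E-box (12.5%, against 12.1% of tested genes). Of these 11, 4 were called lower and 7 were not called. Only 14 of the enzymes called lower had a window, so 4 is 28.6% of them, beside 18.8% of all genes called lower with a window. Pusl1, called lower, is shown because its motif, at +28 from the RefSeq start, lies where those of the members do.
Pusl1, chr4:155891718-155891747, − strand: tcgaccgcgggcCACGTGcaagcgccccgc
In Pus3 it began at −132, in Xpot at −231, and in Qtrt1 it occurred at −48 and again at −3. Among the enzymes not called, it began at +11 in Rpp38, at −9 in Trmt61b, −10 in Thumpd2, −15 in Trmt10a and −144 in Tsen54, at −61 and −85 in Rpusd4, and at −37, −61 and −82 in Osgep.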

How the data were processed

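RNA was measured in 8 samples by QuantSeq 3′ mRNA sequencing. The deposited table holds unnormalised read counts for each Ensembl gene. The authors removed low-quality reads, trimmed them with cutadapt, mapped them to mm10 with HISAT2 and counted them with Subread. The submitters' notes name HISAT2 2.0.4 and cutadapt 1.9.1, and the paper names other versions of cutadapt and Subread. The use of strand and the handling of multi-mapping reads were not stated. Symbols came from a name table that left 115 genes without one, and Tp53rk and Prorp of the wider list were not matched. Promoter windows came from RefSeq, whose build is that of the counts.

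Genes were kept by filterByExpr (minimum count 10), scaled by TMM factors and compared with voom and limma 3.58.1 in R 4.3.3 (filter and factors from edgeR 4.0.16), with group as the only term, since the study used limma. Gene positions are those of the deposited table, and the span of Wdr4 there differs from GENCODE M21. Tests were two-sided with Benjamini-Hochberg adjustment over 10911 genes. The fit was tested on repeated sets of simulated counts, in some of which the share of false calls was above the nominal level and in others below it. No replicates agreed within sampling noise. Alternatives included edgeR's quasi-likelihood test and DESeq2 (1.42.0). The members and lists were chosen with earlier results of these data known. The genes named are the 10 members, every called gene of the wider list, the gene of each role with the highest mean level over all 8 samples (not always the highest in Vehicle alone) and the 5 genes closest to Mettl1.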

Additional observations from a re-analysis of the deposited data

Results flagged for a closer look

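In 74 combinations of a measure and a group of 4 samples (levels of the members and of the other named enzymes, ratios within a sample and the summed level), 3 held a single sample set apart from its group by Dixon's criterion at the 95% level, where chance alone would give about 3.70. Pus7 was at 73.3 CPM in Vehicle sample 1, against 80.0 to 80.6 CPM in the other Vehicle samples. AG636 sample 3 accounted for the remaining pair, with a Trmt61a to Trmt6 ratio of 0.0743, against 0.126 to 0.138 in the other AG636 samples, and a Pus7 to Pus1 ratio of 1.84, against 1.99 to 2.01.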

How the results depend on the processing

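The log2 fold change of each of the 10 members stayed under 0 in all 19 alternative fits. Over all tested genes the main count of 1523 calls became 435 at an adjusted p under 0.01, and ranged from 688 to 1706 when single samples were left out, with 798, 918, 688 and 1010 calls without Vehicle samples 1 to 4. The 9 called members became 5 with library size alone and 4 at an adjusted p under 0.01, and ranged from 4 to 9 with single samples left out. The 17 calls in the wider list became 10 with library size alone, 9 with no filter on low counts and 5 at an adjusted p under 0.01, and ranged from 5 to 13 with single samples left out. The cause of these shifts was not tested. Of the 190 values for single members, 151 kept the side of the threshold and 39 lost the call, in Wdr4, Trmt6, Pus1, Dus1l and Elac2. Replicate numbers in the titles gave no clear sign of a pairing between the groups. Deviations of same-numbered samples correlated at −0.140, 0.0135, 0.203 and 0.135, and only Vehicle sample 3 correlated best with the AG636 sample of its own number. With 4 samples a group, this check cannot exclude a pairing. With the replicate number as a block, 1446 genes, 8 members (Pus1 no longer) and 12 genes of the wider list were called. Scaling without factors moved the median of all genes by 0.07 log2 units. Depth limits the rarest members, since counting error alone came to 9.90%, 10.3% and 10.6% of the AG636 level for Mettl1, Trmt61a and Wdr4.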

Other observations

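The share of genes with an E-box in a promoter window was also counted by the direction of the call over all tested genes, a count added after the members' windows had been seen. Of 735 genes called lower in AG636 that had a window, 138 (18.8%) held the motif, against 37 of 448 called higher (8.26%) and 815 of 6971 not called (11.7%). Windows of the members had a median GC content of 58.5% and a median of 22 CpG dinucleotides, beside 60.7% and 21 for the windows of tested genes. These shares describe letters near annotated starts, and no test was made of them.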
